A study of Mus musculus with 6 samples.

Results

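DNA replication and mitosis genes were followed in epidermis taken from C57BL/6 mice at E19.5, shortly before birth. They are a list of 44 named genes, 22 of S phase and the G1/S transition and 22 of G2 and mitosis. The genes were chosen by name and not by a cutoff on values, but with earlier results of these data known. Each was taken from the deposited table by its Ensembl identifier, with the row of highest mean where a symbol had several. Of the 44, 42 had a row among the 49452 gene rows, 20 of S phase and 22 of G2/M, and Cdt1 and Gins2 were not analysed here. There were 6 RNA libraries. In 3 of them (263, 265 and 266) the genotype label is Rictor -/- and the title ends in ricEKO. The other 3 (261, 262 and 264) are labelled Control. The labels name no Cre, no promoter and no alleles of the controls. They also leave unsaid whether libraries are from different animals, so the p-values cover the spread among these libraries alone, which may be technical. Rictor is the defining subunit of mTOR complex 2, a kinase complex that phosphorylates AKT.

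Values are FPKM, fragments scaled to transcript length and to sequencing depth. Differences are knockout-labelled minus control on the log2(FPKM + 1) scale, which understates the change of low genes, and are given ± SE unless stated. With limma, 13500 genes were tested, those whose mean reached 1 FPKM in one of the groups or in both, and a gene was called at a Benjamini-Hochberg adjusted p under 0.05 over all of them. All 42 genes were above that minimum in both groups, so none entered through 1 group alone. Calls in the knockout-labelled libraries made up 7.91% (higher) and 15.6% (lower) of tested genes, whose median difference was -0.060. That split depends on scaling: it was 10.3% and 12.7% under median scaling, and 12.5% and 12.1% after a length and GC adjustment. Summed FPKM ran from 609375 to 622019 in knockout-labelled and from 623490 to 672925 in control libraries, and relative depth, read from the spacing of low values, was at most 1.21 times that of control 261, the shallowest library. Rictor itself was not lower, at 6.91 ± 0.115 FPKM in knockout-labelled and 5.34 ± 0.862 FPKM in control libraries (SD, n = 3 each; limma adjusted p = 0.0694), so the whole-gene value does not check the labels. Control 264 stood apart from the other controls by gene length: its deviation from controls 261 and 262 was smaller in longer genes over 13467 genes (Spearman's rho -0.34, a description across genes), and results are given with and without it.

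Cells copy their DNA once per cycle. In G1 the origin recognition complex, CDC6 and CDT1 load the ring of MCM2 to MCM7 onto origins, and CDC45 and the GINS complex turn it into the moving helicase of S phase, when PCNA clamps the polymerases to the template. Transcription of these genes is switched on at the G1/S boundary by E2F factors, with cyclin E and its kinase. Genes of G2 and mitosis are transcribed later in the cycle through a promoter element called the cell cycle homology region (CHR), usually near CCAAT boxes bound by NF-Y. In epidermis the dividing cells lie in the basal layer and in the matrix of hair follicles, while suprabasal cells leave the cycle as they differentiate. In a bulk library, more cells in a phase and more RNA per cell cannot be told apart.

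The promoters of S-phase and G2/M genes differed in the words they held. RefSeq promoters (GRCm38.p6, from 250 bases before to 50 bases after the annotated start) were on hand for 16 of the 20 S-phase and 18 of the 22 G2/M genes, counting the promoter listed first for a symbol. Each was searched on both strands for the E2F word (TTTCCCGC, TTTCGCGC, TTTGCCGC or TTTGGCGC), the CHR word TTTGAA and the word CCAAT. A CHR word and a CCAAT word can share a letter at their ends and were counted separately. The E2F word was in 6 of 16 S-phase promoters (37.5%), those of Cdc6, Mcm3, Mcm5, Mcm6, Mcm7 and Pola1, in 1 of 18 G2/M promoters (5.56%), that of Cdk1, and in 4.12% of the promoters of tested genes (2.32% of all 27025 promoters). The CHR word was in 14 of 18 G2/M promoters (77.8%), in 2 of 16 S-phase promoters (12.5%), those of Cdc45 and Mcm2, and in 12.2% of the promoters of tested genes (18.1% of all). All 14 G2/M promoters with a CHR word also held a CCAAT word, a pair found in 12.5% of the S-phase promoters and 5.25% of those of tested genes. CCAAT words alone did not separate the phases, with 88.9% of G2/M and 75.0% of S-phase promoters against 38.8% for tested genes. These are matches of letters, not binding sites, and a window without a match says only that these letters are not in it.

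The promoters of 4 genes are shown, those with the smallest p of each phase among the genes in the promoter table. It did not hold Mcm4, with a smaller limma p than Rrm2, or Tpx2, with a smaller one than Top2a. Pola1 has the E2F word of the S-phase promoters, Cenpf and Top2a have the CHR and CCAAT pair of the G2/M promoters, and Rrm2 is an S-phase promoter without an E2F word of these letters. They are written 5′ to 3′ on the strand of the gene, with E2F, CHR and CCAAT words of either strand in capitals.
Rrm2 (chr12:24708004-24708303, plus strand): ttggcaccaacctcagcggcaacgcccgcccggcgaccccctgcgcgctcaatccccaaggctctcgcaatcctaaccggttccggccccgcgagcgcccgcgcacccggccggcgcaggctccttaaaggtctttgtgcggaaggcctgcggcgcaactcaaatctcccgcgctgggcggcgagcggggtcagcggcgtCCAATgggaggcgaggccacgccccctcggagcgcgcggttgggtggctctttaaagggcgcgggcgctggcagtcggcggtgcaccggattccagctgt
Pola1 (chrX:93632106-93632405, minus strand): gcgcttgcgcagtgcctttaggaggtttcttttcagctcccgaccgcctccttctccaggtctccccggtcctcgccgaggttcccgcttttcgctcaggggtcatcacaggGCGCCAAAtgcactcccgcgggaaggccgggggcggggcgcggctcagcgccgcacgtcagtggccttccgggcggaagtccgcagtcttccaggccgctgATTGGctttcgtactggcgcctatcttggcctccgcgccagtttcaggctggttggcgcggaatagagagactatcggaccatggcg
Cenpf (chr1:189688037-189688336, minus strand): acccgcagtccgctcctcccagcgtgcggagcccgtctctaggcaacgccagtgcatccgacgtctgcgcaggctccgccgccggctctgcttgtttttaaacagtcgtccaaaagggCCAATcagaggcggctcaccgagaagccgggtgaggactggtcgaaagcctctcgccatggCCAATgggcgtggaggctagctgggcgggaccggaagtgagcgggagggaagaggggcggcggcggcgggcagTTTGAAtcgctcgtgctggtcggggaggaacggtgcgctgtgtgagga
Top2a (chr11:99024140-99024439, minus strand): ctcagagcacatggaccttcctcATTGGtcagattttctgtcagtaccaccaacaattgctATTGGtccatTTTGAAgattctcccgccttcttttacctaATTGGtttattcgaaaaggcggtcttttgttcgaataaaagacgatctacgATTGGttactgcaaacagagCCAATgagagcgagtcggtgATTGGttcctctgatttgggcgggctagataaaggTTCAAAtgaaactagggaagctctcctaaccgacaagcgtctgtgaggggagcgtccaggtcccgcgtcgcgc
Rrm2 held a single CCAAT word at -50 from the start. Pola1 held an E2F word, TTTGGCGC on the reverse strand and so GCGCCAAA as printed, at -138 and a CCAAT word at -37. Cenpf held TTTGAA at 3 with CCAAT words at -132 and -71. Top2a held CHR words at -179 and -23 and 6 CCAAT words, 5 of them inverted (ATTGG as printed) and 1, at -78, on the strand shown.

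Most of the genes had higher means in the knockout-labelled libraries, but few differences exceeded the spread between libraries. The difference was above 0 for 38 of the 42 genes (90.5%), 19 of 20 S-phase and 19 of 22 G2/M, against 41.2% of all tested genes. The median difference was 0.22 for S-phase genes and 0.11 for G2/M genes, against -0.060 over all tested genes. Called higher were 2 of the 42 (4.76%), Mcm4 of the replicative helicase and Cenpf of the kinetochore, a share below the 7.91% of all tested genes, and 0 were called lower, against 15.6%. At an unadjusted limma p under 0.05, 10 were higher and 1 was lower, against 13.4% and 24.9% of all tested genes. In 11 of the 42 genes every knockout-labelled library was above every control, and in 1, Cenpa, every one was below, against 16.6% and 29.2% of tested genes. Markers of epidermal cell types differed between the groups as well. Summed FPKM of 6 basal keratinocyte markers was 11160 to 13190 in knockout-labelled and 6366 to 7262 in control libraries (5 called higher), and that of 7 hair matrix and shaft markers was 187 to 203 FPKM in knockout-labelled and 298 to 383 FPKM in control libraries (6 called lower). The 5 suprabasal markers summed to 25020 to 26390 FPKM in knockout-labelled and 27020 to 29820 FPKM in control libraries, with 0 called by limma. Of other cell types, 5 melanocyte markers summed to 264 to 296 FPKM in knockout-labelled and 351 to 437 FPKM in control libraries (4 called lower). The 6 myeloid markers summed to 36.9 to 43.9 FPKM in knockout-labelled and 60.9 to 86.3 FPKM in control libraries (3 called lower), with the Langerhans cell marker Cd207 at 0.116 FPKM at most. The 5 T cell markers summed to 30.5 to 32.9 FPKM in knockout-labelled and 13.2 to 22.2 FPKM in control libraries, but did not move together. Thy1, most of the knockout-labelled sum, was called higher, at 27.2 to 31.2 FPKM against 6.50 to 11.8 FPKM in control libraries. Cd3e and Cd3g were called lower. Cd3d and Trdc, below the minimum for testing, were lower in every knockout-labelled library than in every control. The 6 fibroblast markers summed to 124 to 159 FPKM in knockout-labelled and 114 to 142 FPKM in control libraries. Most of that sum was Dcn, which did not pass (limma adjusted p = 0.731). The 2 called higher were Col1a1 and Col1a2, at 12.1 FPKM at most. The 5 erythroid markers, of which limma called 0, summed to 150.2 to 335 FPKM in knockout-labelled and 291 to 484 FPKM in control libraries, and 4 endothelial markers to 0.777 FPKM at most. The part of these cell types in the replication and mitosis genes was not tested.

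**Figure D1:**
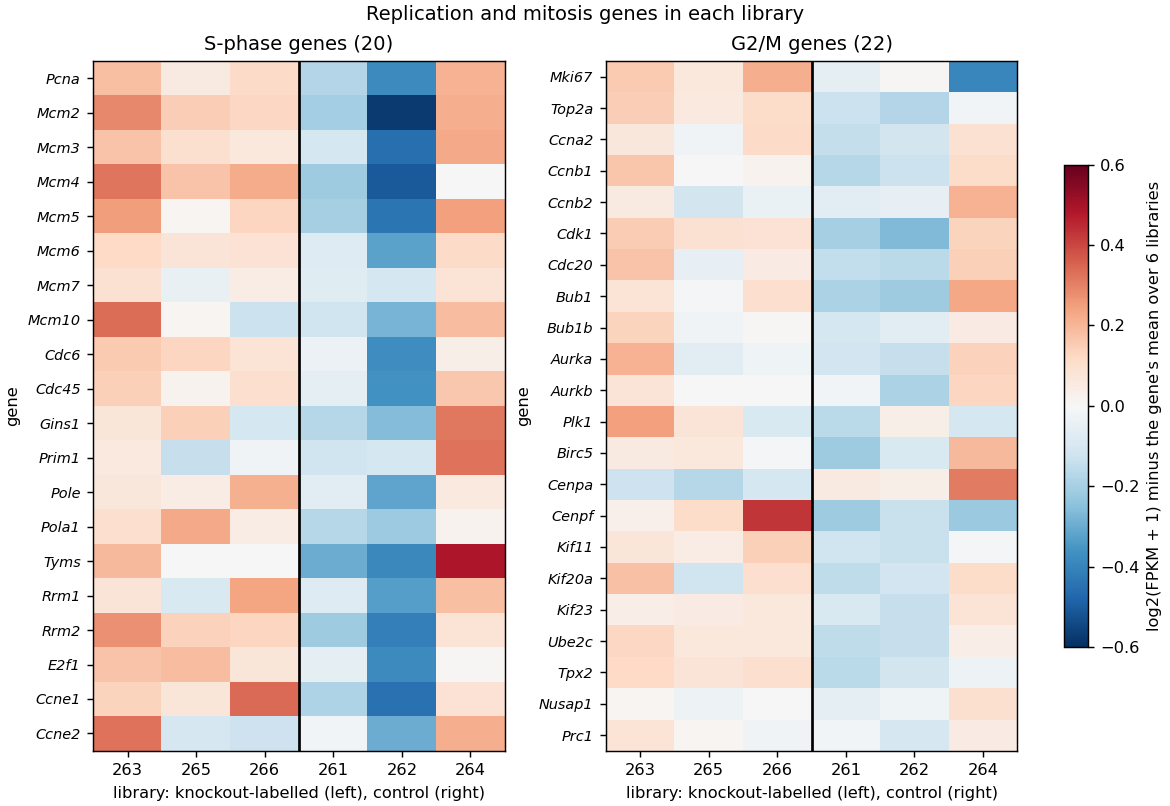
Heat map of log2(FPKM + 1) minus the gene's mean over 6 libraries, for 20 S-phase genes (left) and 22 G2/M genes (right), with knockout-labelled libraries 263, 265 and 266 left of the black line and controls 261, 262 and 264 right of it. Values run from -0.57 to 0.49. Controls 261 and 262 are blue for most genes, while control 264 is red for most, like the knockout-labelled libraries.

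The controls differed more from each other than the knockout-labelled libraries did, above all in S-phase genes. Taking each gene relative to its own mean over the 6 libraries, the mean over the 20 S-phase genes was 0.18, 0.058 and 0.081 in knockout-labelled 263, 265 and 266, against -0.13, -0.35 and 0.16 in controls 261, 262 and 264. Control 264 thus lay among the knockout-labelled libraries and control 262 far below the rest. For G2/M genes the same mean was 0.10, 0.0053 and 0.060 in the knockout-labelled libraries, against -0.12, -0.11 and 0.061 in controls 261, 262 and 264. Here 261 and 262 were alike. The S-phase mean minus the G2/M mean averaged 0.049 ± 0.027 in knockout-labelled and -0.049 ± 0.17 in control libraries (SD, n = 3 each), and the low value in the controls came from 262 alone, at -0.24, with 261 at -0.013 and 264 at 0.10. In each knockout-labelled library this gap was above those of controls 261 and 262 and below that of control 264.

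Control 262 was the lowest of all 6 libraries for 19 of 20 S-phase genes (95%), the exception being Prim1, and for 9 of 22 G2/M genes (40.9%), against 20.7% of all tested genes. Control 264 was above the other controls for 20 of 20 S-phase genes and 19 of 22 G2/M genes, against 49.8% of tested genes. The SD of log2 values was larger among controls than among knockout-labelled libraries for 19 of 20 S-phase genes and 18 of 22 G2/M genes, against 67.3% of tested genes. Its median was 0.089 among knockout-labelled libraries and 0.26 among controls for S-phase genes, and 0.055 against 0.13 for G2/M genes. Of 58 other replication genes, outside the list, 262 was the lowest library in 36 (62.1%).

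**Figure D2:**
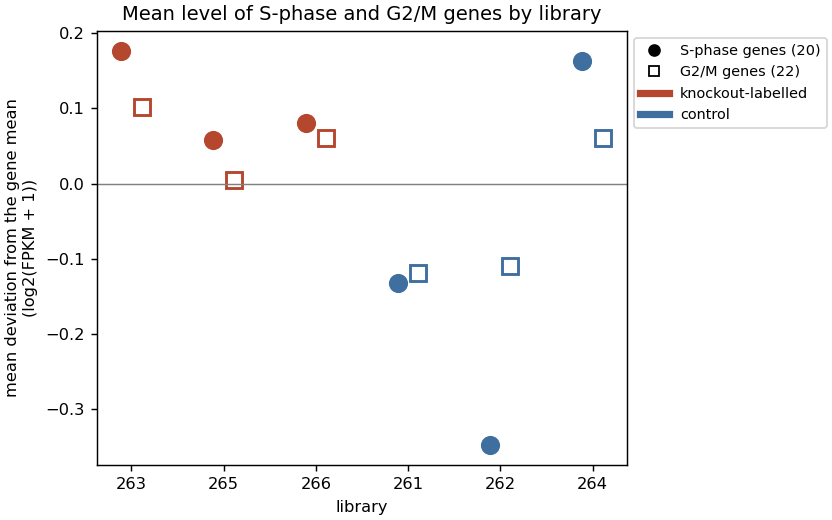
Mean deviation from the gene mean on the log2(FPKM + 1) scale for 20 S-phase genes (filled circles) and 22 G2/M genes (open squares) in each library, knockout-labelled in red and control in blue. The S-phase mean of control 262 is the lowest point at -0.35, and control 264 lies at 0.16, within the range of the knockout-labelled libraries.

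The number of genes called depended on single libraries. Without control 264, 17 of the 42 genes were called higher (40.5%) and 1 lower, against 11.2% and 16.8% of tested genes. The 17 were Pcna, Mcm2 to Mcm6, Pola1, Tyms, Rrm2, Ccne1, Top2a, Cdk1, Bub1, Kif11, Kif23, Ube2c and Tpx2, and the lower one was Cenpa. The median differences were then 0.32 for S-phase and 0.18 for G2/M genes. Without control 262, 0 of 42 were called in either direction by limma, against 4.92% higher and 11.4% lower of tested genes, and the medians were 0.087 and 0.069. Leaving out control 261 also gave 0 calls in either direction (4.7% higher and 9.55% lower of tested genes). So did leaving out knockout-labelled 263 (3.53% and 7.3%), 265 (4.29% and 8.62%) or 266 (3.98% and 7.42%). In 32 of the 42 genes (76.2%) every knockout-labelled library was above controls 261 and 262, against 24.6% of tested genes, and in 1 every one was below, against 35.8%. With a smooth trend of length and GC removed from each library, 7 of 42 (16.7%) were called higher and 0 lower, against 12.5% and 12.1% of tested genes, the 7 being Pcna, Mcm4, Rrm2, E2f1, Ccne1, Ube2c and Tpx2. With both that adjustment and control 264 left out, an alternative added after seeing the data, 23 of 42 were called higher and 0 lower, against 14.7% and 12.5% of tested genes. Median scaling, added likewise, gave 22 higher and 0 lower without 264 (14.3% and 13.9% of tested genes) and 1 higher and 0 lower without 262 (6.39% and 8.54%). Array weights gave 24 higher and 1 lower, against 17.3% and 29.2% of tested genes. Control 264 had the lowest weight of the 6, at 0.194, and control 261 the highest, at 5.69, with control 262 at 0.628. The control side of that fit thus rested mostly on the single library 261. With all 6 libraries, median scaling gave 5 of 42 higher (11.9%) and 0 lower, against 10.3% and 12.7% of tested genes.

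**Figure D3:**
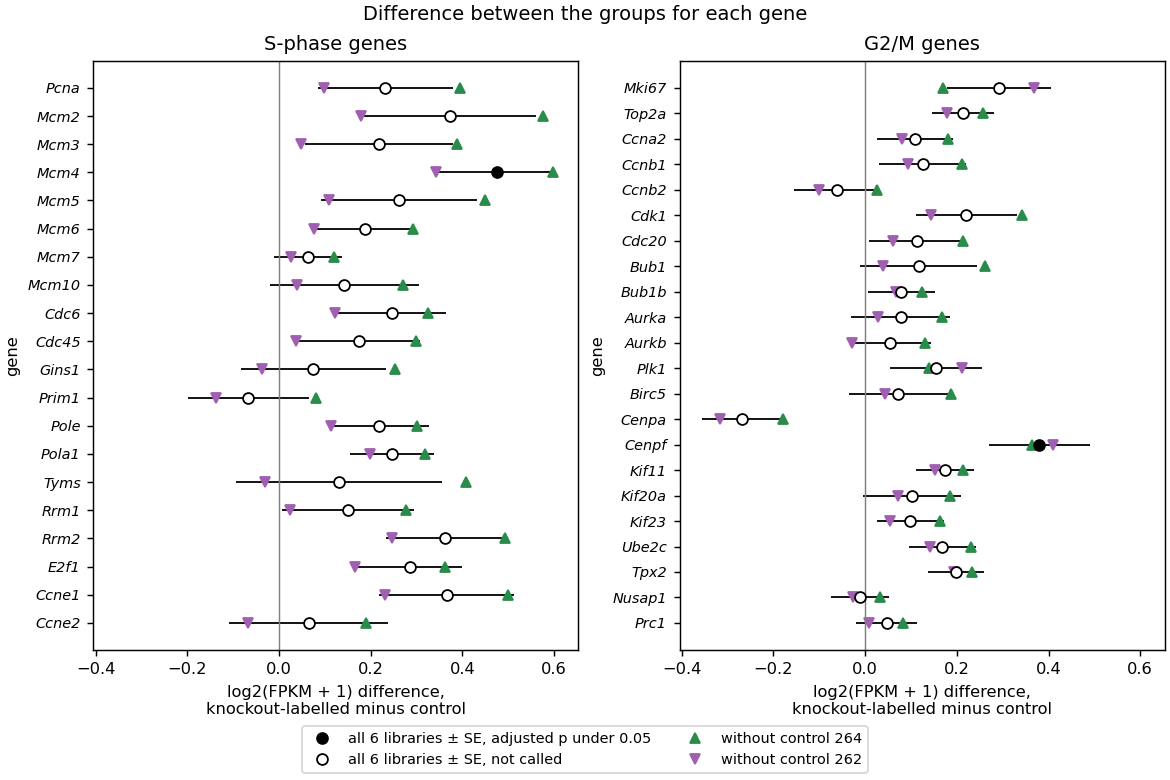
Difference of log2(FPKM + 1), knockout-labelled minus control, for each S-phase gene (left) and G2/M gene (right). Circles with bars are estimates ± SE from all 6 libraries, filled for the 2 called genes Mcm4 and Cenpf, and triangles are the estimates without control 264 (up) or control 262 (down). For every S-phase gene the estimate is larger without 264 and smaller without 262.

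The MCM helicase held the largest S-phase difference, and 1 of the 8 genes of the helicase and its clamp was called, with a list median of 0.23. Mcm4 (ENSMUSG00000022673, chromosome 16, 15623897 to 15637400, GRCm38) stood at 35.2, 31.6 and 32.8 FPKM in knockout-labelled 263, 265 and 266, against 24.0, 19.4 and 28.1 FPKM in controls 261, 262 and 264. Every knockout-labelled library was above every control. Mcm4 rose by 0.48 ± 0.13 (limma adjusted p = 0.0401), a ratio of mean FPKM of 1.39. The call was lost without a filter on low values (adjusted p = 0.0909) and without any single library other than control 264 (0.0585 without control 262). Across the 16 alternatives of values and libraries its adjusted p ran from 0.00290 to 0.125 and its difference from 0.34 to 0.60. Mcm2, another subunit of the ring, stood at 32.9, 29.8 and 29.3 FPKM in knockout-labelled libraries, against 23.1, 17.7 and 31.4 FPKM in controls 261, 262 and 264. Its groups overlapped through control 264, and the difference of 0.37 ± 0.19 did not pass (limma adjusted p = 0.191). Without 264 it was 0.58 (adjusted p = 0.0221). The ring subunits Mcm3, Mcm5 and Mcm6 overlapped between the groups as well, with differences of 0.22, 0.26 and 0.19 that did not pass, and each was called without 264. Mcm7, the most abundant MCM subunit, stood at 57.3, 52.1 and 55.4 FPKM in knockout-labelled and at 51.0, 49.8 and 56.8 FPKM in control libraries. Its difference of 0.063 ± 0.075 did not pass with or without control 264 (limma adjusted p = 0.568 and 0.167). Mcm10, a factor that helps start the helicase, differed by 0.14 ± 0.16.

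Pcna, the sliding clamp and the most abundant S-phase gene, stood at 80.0, 73.2 and 76.6 FPKM in knockout-labelled 263, 265 and 266, against 62.4, 53.8 and 81.8 FPKM in controls 261, 262 and 264. Control 264 was above every knockout-labelled library. The difference of 0.23 ± 0.15 did not pass (limma adjusted p = 0.288), and was 0.40 without control 264 (0.0194). The origin licensing factor Cdc6, at 3.61 to 3.86 FPKM in knockout-labelled and 2.37 to 3.47 FPKM in control libraries, did not overlap between the groups but differed by 0.25 ± 0.12 (adjusted p = 0.179). The helicase activators Cdc45 and Gins1 differed by 0.17 ± 0.13 and 0.075 ± 0.16. Of the polymerase genes, Pola1 encodes a catalytic subunit, and its promoter is shown above. Pola1 stood at 6.24, 6.91 and 5.97 FPKM in knockout-labelled and at 5.0, 4.81 and 5.86 FPKM in control libraries. The groups did not overlap, with a difference of 0.25 ± 0.091 (adjusted p = 0.0960). Pole, of the leading strand polymerase, differed by 0.22 ± 0.11. Prim1, the primase subunit, was the S-phase gene with a difference below 0 (-0.067 ± 0.13): it stood at 17.3 to 19.9 FPKM in knockout-labelled libraries and at 17.5, 17.7 and 24.2 FPKM in controls 261, 262 and 264.

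Of the 3 genes for nucleotide supply none passed the test, with differences of 0.13 to 0.36. Rrm2, the S-phase subunit of ribonucleotide reductase and the other S-phase gene with its promoter shown, stood at 31.1, 28.3 and 28.1 FPKM in knockout-labelled 263, 265 and 266, against 21.9, 19.0 and 27.2 FPKM in controls 261, 262 and 264. All knockout-labelled values were above all controls. The difference of 0.36 ± 0.13 did not pass (limma adjusted p = 0.0829), and passed without control 264 (0.49, adjusted p = 0.0124) and after the length and GC adjustment (0.48, adjusted p = 0.0139). Its partner subunit Rrm1 differed by 0.15 ± 0.14. Tyms, thymidylate synthase, stood at 27.3 to 31.4 FPKM in knockout-labelled libraries and at 22.1, 20.6 and 38.7 FPKM in controls 261, 262 and 264 (0.13 ± 0.22). On the log2 scale its SD among controls, 0.48, was the largest of the 42 genes.

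Among the regulators of the G1/S switch, E2f1, the activator of these genes, stood at 6.28, 6.35 and 5.79 FPKM in knockout-labelled 263, 265 and 266, against 5.22, 3.96 and 5.50 FPKM in controls 261, 262 and 264. The groups did not overlap, and the difference of 0.29 ± 0.11 did not pass (limma adjusted p = 0.114). Ccne1, cyclin E1, stood at 4.66, 4.42 and 5.52 FPKM in knockout-labelled and at 3.54, 2.77 and 4.47 FPKM in control libraries (0.37 ± 0.15, adjusted p = 0.119). The overlap was narrow, between knockout-labelled 265 and control 264. The paralog Ccne2 differed by 0.065 ± 0.17. E2f1 and Ccne1 were called after the length and GC adjustment (adjusted p = 0.0423 and 0.0312).

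**Figure D4:**
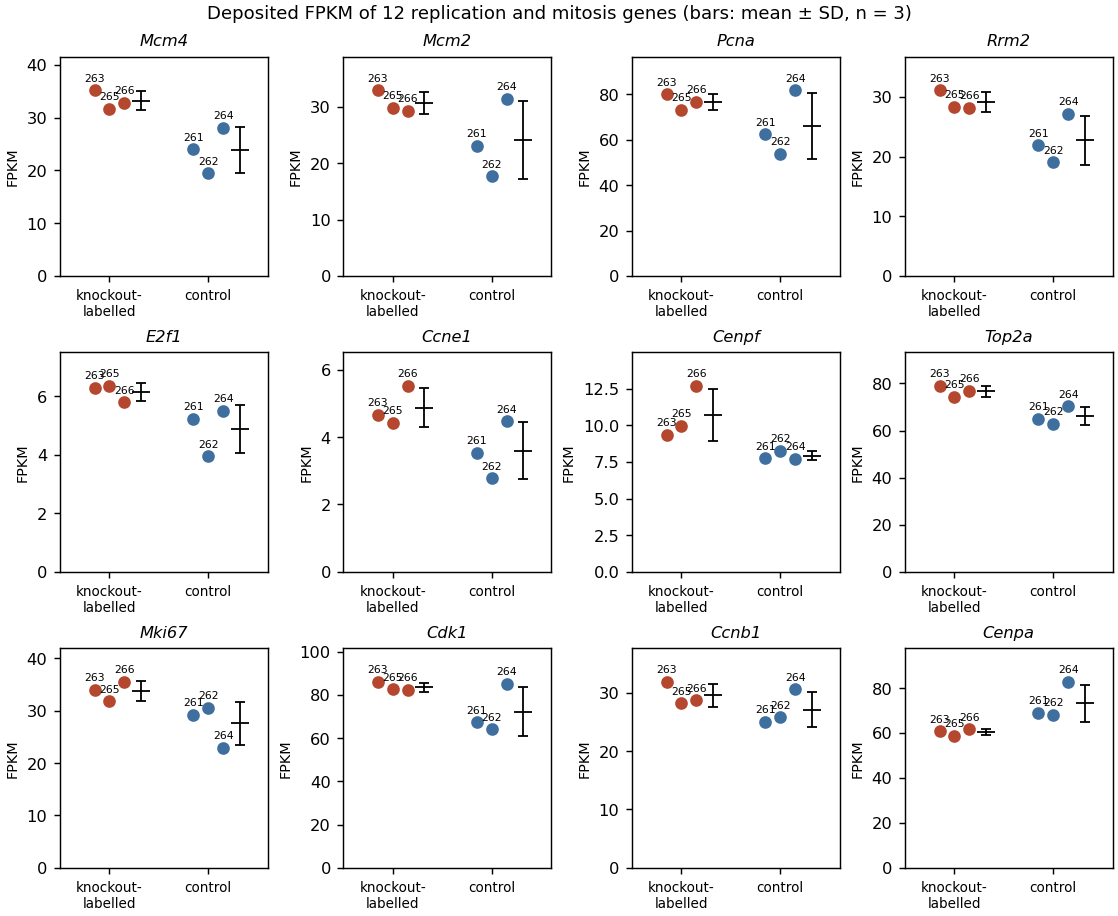
Deposited FPKM of 12 genes in knockout-labelled (red, left) and control (blue, right) libraries, each point labelled with its library and with the mean ± SD (n = 3) beside it, on axes that start at 0. Control 264 reaches or passes the knockout-labelled values for Pcna at 81.8 FPKM and Cdk1 at 85.1 FPKM, but is the lowest library for Mki67 at 22.9 FPKM and the highest for Cenpa at 82.8 FPKM.

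Of the 22 G2/M genes, 1 was called, Cenpf, which rose. Cenpf (ENSMUSG00000026605, chromosome 1, 189640606 to 189688086, GRCm38), a large protein of the outer kinetochore, stood at 9.37, 9.98 and 12.7 FPKM in knockout-labelled 263, 265 and 266, against 7.75, 8.27 and 7.71 FPKM in controls 261, 262 and 264. The groups did not overlap, and 266 was the highest library. The difference was 0.38 ± 0.11 (limma adjusted p = 0.0490). It was lost without any 1 of the 6 libraries, without a filter on low values, with a pseudocount of 5, without an intensity trend and after the length and GC adjustment, and its adjusted p ran from 0.0107 to 0.121 over 16 alternatives. Cenpa, the histone H3 variant of centromeres, went the other way, at 60.8, 58.9 and 61.6 FPKM in knockout-labelled and 68.9, 68.1 and 82.8 FPKM in control libraries. Every knockout-labelled library was below every control. Its difference of -0.27 ± 0.088 did not pass (adjusted p = 0.0696), and was called without control 264, with array weights and after quantile normalization. Birc5, survivin of the chromosomal passenger complex, differed by 0.072 ± 0.11.

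Mki67, the proliferation antigen that coats mitotic chromosomes, stood at 34.0, 31.8 and 35.5 FPKM in knockout-labelled 263, 265 and 266, against 29.3, 30.5 and 22.9 FPKM in controls 261, 262 and 264. Unlike the S-phase genes it was lowest in control 264, and its difference of 0.29 ± 0.11 (limma adjusted p = 0.108) shrank to 0.17 without that library. Top2a, the topoisomerase that untangles sister chromatids, stood at 78.9, 74.2 and 77.0 FPKM in knockout-labelled and at 65.1, 62.9 and 70.3 FPKM in control libraries. The groups did not overlap, with a difference of 0.21 ± 0.067 (adjusted p = 0.0615). Mki67, Cenpf and Top2a have long exonic lengths, of 10061, 15433 and 9013 bases against a median of 4246 over the 42 genes. Exonic length here joins all annotated exons of a gene, so it can exceed the length of its mRNA. Over all 13467 tested genes with a length the difference went with exonic length (Spearman's rho 0.23), and over the 42 genes rho was 0.20. It was 0.43 over the 22 G2/M genes and -0.12 over the 20 S-phase genes. For control 264 minus the other controls rho with length was -0.43 over G2/M genes and -0.22 over S-phase genes, against -0.34 over all. These are descriptions across genes that share libraries, and the part of length in the differences was not tested beyond the adjustment above.

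Cdk1, the kinase that drives entry into mitosis and the most abundant G2/M gene, stood at 86.1, 82.6 and 82.3 FPKM in knockout-labelled 263, 265 and 266, against 67.3, 64.2 and 85.1 FPKM in controls 261, 262 and 264. Control 264 lay among the knockout-labelled libraries, and the difference of 0.22 ± 0.11 did not pass (limma adjusted p = 0.190). Its partner Ccnb1, cyclin B1, stood at 31.9, 28.2 and 28.7 FPKM in knockout-labelled and at 25.0, 25.8 and 30.6 FPKM in control libraries (0.13 ± 0.094, adjusted p = 0.368). Ccnb2 differed by -0.062 ± 0.093 and Ccna2, cyclin A2, by 0.11 ± 0.083. The mitotic kinases Aurka, Aurkb and Plk1 differed by 0.078 ± 0.11, 0.054 ± 0.090 and 0.15 ± 0.10. Their groups overlapped. Ube2c, the conjugating enzyme that works with the anaphase-promoting complex, stood at 80.9, 77.5 and 77.3 FPKM in knockout-labelled and at 66.4, 67.2 and 76.2 FPKM in control libraries, without overlap (0.17 ± 0.074, adjusted p = 0.143). Cdc20, an activator of that complex, and the checkpoint kinases Bub1 and Bub1b differed by 0.11 ± 0.10, 0.12 ± 0.13 and 0.079 ± 0.073. Of the spindle proteins, Tpx2, which nucleates microtubules around chromosomes, and the motor Kif11 did not overlap between the groups, at 0.20 ± 0.061 (adjusted p = 0.0574) and 0.17 ± 0.064 (0.0946). Kif23, Kif20a, Prc1 and Nusap1, of the central and mitotic spindle, differed by 0.099 ± 0.073, 0.10 ± 0.11, 0.047 ± 0.066 and -0.012 ± 0.064. No source used here says whether the libraries keep strand. Exons of 9 of the 42 genes overlap those of a protein-coding gene on the opposite strand. They are Ccna2, Ccne2, Cdc20, Cdc45, Kif20a, Mcm7, Nusap1, Prc1 and Ube2c. Kif20a shares the most, 1271 bases with Cdc23. Cdc20, at a mean of 49.9 FPKM, shares 53 bases with Elovl1, the most abundant of the overlapping genes at 489.5 FPKM. The part of these overlaps in the values was not tested.

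Other genes of the cycle were taken in 3 lists assembled by name, also with earlier results of these data known. Of 58 other replication genes 5 were called higher (8.62%) and 1 lower, with a median of 0.10. The background over all tested genes was near that share, at 7.91% higher, with 15.6% lower. Of 78 other mitosis genes 7 were called higher (8.97%) and 2 lower, with a median of 0.11. Of 28 transcription regulators and kinase controls of the cycle 4 were called higher (14.3%) and 0 lower, with a median of 0.091. Without control 264 the counts called higher were 14, 22 and 6, and without control 262 they were 2, 3 and 4, against 11.2% and 4.92% of tested genes.

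Of 8 E2F family genes tested, E2f1 included, 3 were called higher and 5 did not pass the test. Over all tested genes 7.91% were called higher and 15.6% lower. The family was set out after values of its genes were seen, so its count is a description only. E2f2, E2f3, E2f5 and E2f6 differed by -0.030 ± 0.098, 0.18 ± 0.16, -0.029 ± 0.11 and 0.29 ± 0.12 (limma adjusted p from 0.124 to 0.869). E2f7, an atypical E2F that represses S-phase genes, stood at 6.82, 7.28 and 6.48 FPKM in knockout-labelled 263, 265 and 266, against 4.51, 3.72 and 3.48 FPKM in controls 261, 262 and 264. It rose by 0.68 ± 0.097 (limma adjusted p = 0.00577). Its relative E2f8 stood at 14.2, 13.3 and 13.3 FPKM in knockout-labelled and at 11.2, 9.65 and 9.72 FPKM in control libraries and rose by 0.39 ± 0.074 (0.0140). E2f4, the E2F of the repressive DREAM complex, stood at 40.4, 40.7 and 41.2 FPKM in knockout-labelled and at 31.5, 29.1 and 31.7 FPKM in control libraries and rose by 0.40 ± 0.060 (0.00691). In each of these called genes every knockout-labelled library was above every control, control 264 included, as in 16.6% of all tested genes. Because these genes were picked by their calls, that is no separate result. E2f7 and E2f4 were called in all 19 alternatives and E2f8 in 18, the exception being without knockout-labelled 263 (adjusted p = 0.0593). Pkmyt1, a kinase that holds Cdk1 inactive, rose by 0.35 ± 0.068 (0.0142), and its call was lost without 265 or 266.

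Among other replication genes, Cdc7, the kinase that fires origins by phosphorylating MCM proteins, stood at 5.92, 5.30 and 5.97 FPKM in knockout-labelled and at 4.06, 4.08 and 3.91 FPKM in control libraries. It rose by 0.42 ± 0.072 (limma adjusted p = 0.00976) and was called in all 19 alternatives. Chaf1a, the histone chaperone subunit behind the fork, rose by 0.35 ± 0.068 (0.0142), Mcmbp, which binds MCM subunits, by 0.29 ± 0.069 (0.0267) and Brca1, a DNA repair factor, by 0.27 ± 0.075 (0.0417). Rnaseh2a, a subunit of the nuclease that removes ribonucleotides from DNA, fell by 0.30 on the log2 scale (SE 0.086, adjusted p = 0.0456). That fall was called in 4 of 19 alternatives. The rise of Brca1 was called in 10 of 18, that of Mcmbp in 15 of 19 and that of Chaf1a in 17 of 19. Leaving out any library ended the call of Brca1, any but control 261 that of Rnaseh2a, control 262 or any knockout-labelled library that of Mcmbp, and 263 or 266 that of Chaf1a. The other gene called higher was Dnmt1, the maintenance DNA methyltransferase (0.23 ± 0.064, 0.0448).

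Among other mitosis genes, Anln, the anillin of the cleavage furrow, stood at 25.6, 24.3 and 23.9 FPKM in knockout-labelled and at 16.7, 17.2 and 18.8 FPKM in control libraries and rose by 0.46 ± 0.068 (limma adjusted p = 0.00637). Ncapg2, a condensin II subunit, rose by 0.35 ± 0.069 (0.0149), Tubb4b, a beta tubulin, by 0.59 ± 0.13 (0.0210) and Incenp, of the passenger complex, by 0.24 ± 0.056 (0.0269). Fam83d, which recruits a casein kinase to the spindle, fell to 14.1, 13.3 and 14.5 FPKM in knockout-labelled libraries, against 23.3, 27.2 and 25.4 FPKM in controls (-0.81 ± 0.075, adjusted p = 0.00221). Anln and Fam83d were called in all 19 alternatives. Ncapg2 was called in 17, not without 263 or 266. Tubb4b and Incenp were called in 14 each, not without control 261 or any knockout-labelled library, nor, for Incenp, without control 262 and, for Tubb4b, without a filter on low values. Cenpm, a centromere protein, was called lower (-0.34 ± 0.096, 0.0440), and in 5 of 19 alternatives, not without any library other than 266. Gtse1, Kif4 and Smc2, the other genes called higher, had differences of 0.30 to 0.36.

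**Figure D5:**
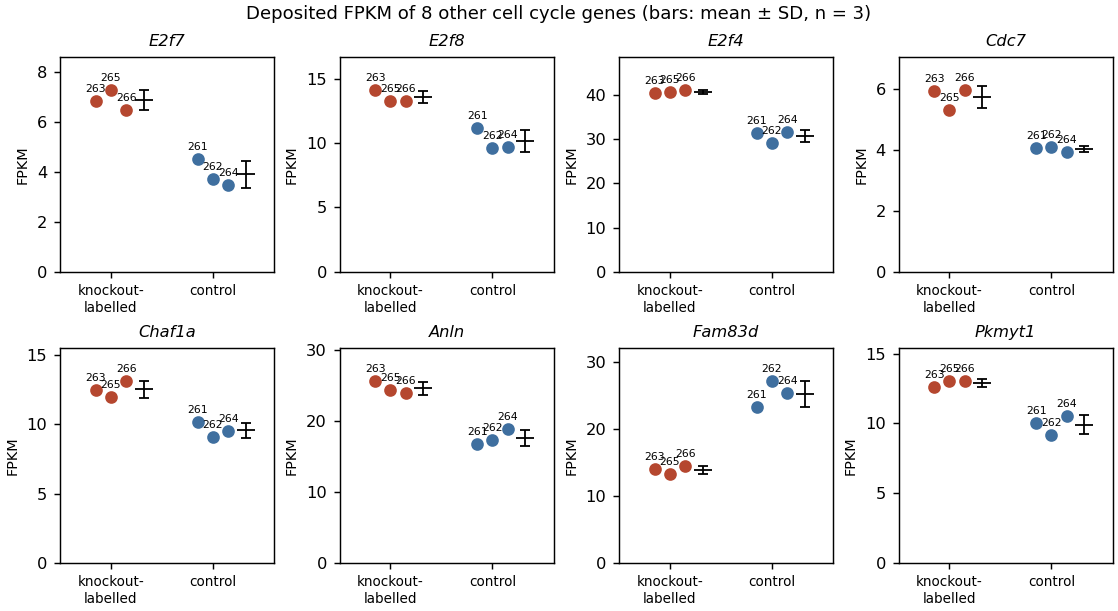
Deposited FPKM of 8 other cell cycle genes in knockout-labelled (red, left) and control (blue, right) libraries, with the mean ± SD (n = 3) beside the points and axes that start at 0. The 8 were picked among genes called by limma, so that the groups do not overlap for any of them is no separate result. Over all tested genes every knockout-labelled library was above every control in 16.6% and below in 29.2%. Fam83d, at 13.3 to 14.5 FPKM in knockout-labelled and 23.3 to 27.2 FPKM in control libraries, is the gene that is lower.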

How the data were processed

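Total RNA of separated epidermis was isolated on QIAGEN RNeasy Mini columns, per the labels' protocols. CASAVA and Cufflinks were used with GRCm38, per the submitters' processing notes. No source used here gives versions, aligner, annotation, strandedness or RNA selection. Per the file headers, the authors deposited FPKM with 1 column per library. FPKM are not counts, so no count model was used, and no gene-level counting error was derived. Symbols came from a supplied table of gene names, which named 49109 of 49452 identifiers, and coordinates and exon lengths from GENCODE M21 (GRCm38), and 66 rows of repeated symbols were dropped.

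Log2(FPKM + 1) values of 13500 genes were fitted with limma (intensity trend, two-sided, 3 libraries against 3, no covariates). Alternatives were pseudocounts of 0.1 and 5, no filter, a minimum of 5 FPKM, scaling by the median, by a trimmed mean or by quantiles, a length and GC adjustment (splines with 4 degrees of freedom, which also centre each library), no intensity trend, array weights, a threshold of 0.10 and each library left out. Scaling combined with 264 or 262 left out was added after seeing the data. The fit was tested on simulated data whose planted changes were larger than any difference of the members. Noise was drawn for each gene alone, with the same SD in both groups. The simulation therefore does not show how the fit does for differences of the members' size. The members, lists, named genes and alternatives were chosen with earlier results of these data known. Values in every library are given for called members, the 3 largest differences and 2 most abundant genes of each phase and 8 genes picked by name, and up to 4 called genes in each direction of each other list are named. Cdc6, Prim1 and Tyms, Dnmt1, Gtse1, Kif4 and Smc2, the other E2F genes and the promoter genes were added after their values were seen. R 4.3.3, limma 3.58.1, Python 3.11.15, pandas 2.3.3 and matplotlib 3.10.9 were used.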

Additional observations from a re-analysis of the deposited data

How the results depend on the processing

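The number of the 42 genes called higher was 2, and 1 with a pseudocount of 5, 1 without an intensity trend, 0 without a filter, 5 under median scaling, 8 under trimmed mean scaling, 8 under quantile normalization, 7 after the length and GC adjustment, 24 with array weights, and 7 at a threshold of 0.10. The number lower was 0, and 1 under quantile normalization, with array weights and at 0.10. The share of all tested genes called higher, 7.91%, was 7.79%, 7.56%, 2.68%, 10.3%, 12%, 11.3%, 12.5%, 17.3% and 11.7% in the same order, so it moved with scaling and threshold as well. The share called lower, 15.6%, was 12.3% under quantile normalization, 29.2% with array weights and 22.1% at 0.10. Combined with 264 left out, median scaling gave 22 and the length and GC adjustment 23, and median scaling with 262 left out gave 1. Leaving out each library gave 0 to 17 higher and 0 to 1 lower, both upper ends without control 264. Over all tested genes, 1068 higher and 2101 lower became 477 to 1514 and 985 to 2270 with a library left out, 2335 and 3937 with array weights, 1620 higher under trimmed mean scaling and 1684 after the length and GC adjustment. With 264 left out they were 1927 higher under median scaling and 1979 after the adjustment, and 1152 were lower under median scaling with 262 left out. Array weights gave control 264 a weight of 0.194 and control 261 5.69. The share of calls that were higher depended on scaling, as 7.91% higher and 15.6% lower became 12.5% and 12.1% after the adjustment.

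The S-phase median of 0.22 ran from 0.087 to 0.32 with a library left out. The G2/M median of 0.11 ran from 0.065 to 0.18, and was 0.21 with array weights, and with 264 left out 0.22 under median scaling and 0.23 after the adjustment. The median of all tested genes, -0.060, ran from -0.073 to -0.048 and was -0.040 with a pseudocount of 5, -0.013 without a filter, -0.020 under median scaling, 0.00297 under trimmed mean scaling, 4.54e-05 under quantile normalization and -0.0063 after the adjustment. With 264 left out it was -0.013 under median scaling and -0.0036 after the adjustment, and with 262 left out -0.025 under median scaling.

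Of genes that did not pass, 9 changed sign somewhere. Prim1 was 0.00264 under trimmed mean scaling, 0.00031 after the adjustment, 0.083 with array weights, and with 264 left out 0.12 under median scaling and 0.11 after the adjustment. Ccnb2 was 0.0087, 0.12, 0.031, 0.065 and 0.145 in the same order. Nusap1 was 0.032 under median scaling, 0.058 under trimmed mean scaling, 0.023 under quantile normalization, 0.043 after the adjustment and 0.043 with array weights, with 264 left out 0.072 under median scaling and 0.045 after the adjustment, and with 262 left out 0.025 under median scaling. Ccne2 was -0.025 under median scaling with 262 left out. With a library left out, Gins1 ran from -0.036 to 0.25, Prim1 from -0.14 to 0.081, Tyms from -0.030 to 0.41, Ccne2 from -0.081 to 0.19, Ccnb2 from -0.11 to 0.026, Aurka from -0.0068 to 0.17, Aurkb from -0.028 to 0.13, Birc5 from -0.016 to 0.19 and Nusap1 from -0.041 to 0.033. The causes were not tested. No paired analysis was run, because every library has its own number and the sample labels name no pairs. FPKM carry no counts, so the counting error of the low genes, Cdc6, Mcm10, Ccne2 and Ccne1, is not known.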
